A study of Homo sapiens with 9 samples.

Results

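PDE1C, PKIA and 8 further genes of cyclic AMP breakdown and of protein kinase A were followed across 9 microarrays of a breast cancer cell line. The members were the phosphodiesterases PDE1C, PDE4B and PDE4D, the inhibitors PKIA, PKIB and PKIG, the catalytic subunits PRKACA and PRKACB, and the regulatory subunits PRKAR1A and PRKAR2B. Every probe set whose annotation names only 1 of these symbols was taken, which gave 30 probe sets for 10 genes, of 54613 probe sets and 19775 genes in all. The members were selected on measured values: PDE1C and PKIA were chosen by their differences from the control in these arrays, and the others for their role beside them. Values against the control are therefore descriptions, and they support no statement about the pathway as a whole.

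Cyclic AMP is a small second messenger that adenylyl cyclases make and phosphodiesterases break down. It binds the regulatory subunits of protein kinase A (PKA) and so frees the catalytic subunits, which phosphorylate many proteins and, in the nucleus, the transcription factor CREB. The PKI inhibitors are small proteins that bind a free catalytic subunit, block its active site and carry it out of the nucleus.

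The cells were MDA-MB-231, an established line from a triple-negative breast cancer, grown in serum and transfected with 1 small RNA at 10 nM, with total RNA taken after 48 h. The groups were AllStar (the negative control), Qmimic and Dmimic, with 3 biological replicates each, and every well went on 1 HG-U133 Plus 2.0 array. MicroRNA miR-34a and the receptor AXL appear in the title of the series, but the labels explain neither Q nor D and give no sequence of a mimic. All groups share the cell line, the transfection reagent, the dose and the time, so no untransfected culture enters any comparison, and both mimics are compared with the same AllStar arrays.

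Values are log2 RMA levels, on which a difference of 1 is a doubling. Levels of different probe sets are not comparable, since each has its own probes. A probe set was called where limma's Benjamini-Hochberg adjusted p over all probe sets was under 0.05 and the change at least 1.5-fold. AllStar replicate 3 stood apart: its correlation with the other arrays was 0.974 to 0.981, against 0.993 to 0.998 among those 8, and its 18S ribosomal RNA signal was 8.73 against 5.27 to 6.26. It was also low for the members, at a median of -0.40 from the mean of AllStar replicates 1 and 2, with 26 of 30 probe sets below that mean. Over all probe sets the same median was 0.01. It was 0.21 for those at a level of 4 to 6, -0.26 at 6 to 8 and -0.45 at 8 to 10. For the 13 member probe sets under 6 it was -0.13, and for the 17 at 6 or more -0.46. The part of that array in any difference was not tested, and differences are given for all 9 arrays, for the 8 without it or for both, as named. Both fits compare few arrays, and their median 95% half-width for a difference from AllStar was 0.26 with 9 arrays and 0.19 with 8.

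Of the genes that define the line, vimentin (VIM) lay at a median of 13.68, CD44 at 12.02, AXL at 11.83 and FOSL1 at 10.08. Of those it should hold low, E-cadherin (CDH1) lay at 3.64, the progesterone receptor PGR at 3.98, ESR1 at 6.86, EPCAM at 8.02 and ERBB2 at 8.62. CDH1 and PGR lay above 16.6% and 23.3% of all probe sets. ESR1, EPCAM and ERBB2 lay above 68.6%, 80.4% and 85.5%, so they did not read low. Of the genes of other cells, the leukocyte gene PTPRC lay at 3.83, the collagen COL3A1 at 3.90, the T cell gene CD3E at 5.46, the endothelial PECAM1 at 6.30 and COL1A1 at 7.30. Since each probe set has its own scale, these levels do not settle which of the genes the cells expressed, and their part in the results was not tested. In bulk RNA, fewer cells expressing a gene and less of its RNA per cell cannot be told apart.

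The mature miR-34a-5p is shown because the title names it and both treatments are called mimics. RefSeq (GRCh38.p14) places it at chr1:9151735-9151756 on the minus strand, and the capitals mark its seed, bases 2 to 8, the stretch that pairs with target transcripts.
hsa-miR-34a-5p: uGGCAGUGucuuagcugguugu
Whether either mimic carries this sequence is not given in the sources used here, and no transcript sequence was searched for sites.

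The promoters bear on the pathway through CREB, which binds the cyclic AMP response element TGACGTCA or its shorter core TGACG. RefSeq start-site windows of 300 bases were listed for 9 of the 10 genes, and PKIA had no entry. Searched on both strands, the full element, which holds the core on each strand, lay in 1.85% of all 35116 windows and the core in 24.6%. Among the members the full element was found only in PRKAR1A, in 2 overlapping windows of 5 that hold the same site. It lies on chromosome 17 at chr17:68512381-68512388, 49 bases before 1 annotated start and 2 bases after another. The stretch at chr17:68512370-68512399 on the plus strand is shown with the element in capitals.
PRKAR1A element: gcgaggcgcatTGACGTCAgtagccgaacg
The core was in 4 of 5 PRKAR1A windows, 2 of 3 of PKIB, 1 of 2 of PRKACA, 1 of 5 of PRKACB and 1 of 8 of PDE4D. The 6 windows of PDE1C, the 6 of PDE4B, the 2 of PKIG and the 1 of PRKAR2B held neither. These matches describe letters in the window and nothing about binding.

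PDE1C (chr7:31616777-32428224, GRCh38.p14), a phosphodiesterase that calcium and calmodulin switch on, breaks down both cyclic AMP and cyclic GMP. Its levels were higher with Dmimic on most of its probe sets, and Dmimic was above Qmimic on all 6. With Qmimic the larger rises were on 236344_at and 239218_at, while 207303_at and 243564_at overlapped AllStar and 1554378_a_at lay lower. On 236344_at the AllStar arrays read 8.68, 8.91 and 8.45, the Qmimic arrays 9.21, 9.38 and 9.33, and the Dmimic arrays 9.79, 9.73 and 9.88. The 3 groups did not overlap, and every Dmimic array lay above every Qmimic array. Dmimic was above AllStar by 1.12 (SE 0.12), or 2.18-fold, with 9 arrays and by 1.01 (SE 0.09), or 2.01-fold, with 8. Qmimic was above it by 0.63 (SE 0.12) and 0.51 (SE 0.09).

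On the PDE1C probe set 239218_at the AllStar arrays read 7.40, 7.62 and 6.72, the Qmimic arrays 8.11, 8.34 and 8.09, and the Dmimic arrays 8.48, 8.41 and 8.49. AllStar replicate 3 was by far the lowest array, and without it the remaining 8 arrays kept the order AllStar, Qmimic, Dmimic with no overlap. The Dmimic difference was 1.21 (SE 0.19) with 9 arrays and 0.95 (SE 0.09) with 8, and the Qmimic difference 0.94 (SE 0.19) and 0.67 (SE 0.09). On 216869_at AllStar read 7.49, 7.54 and 7.18, Qmimic 7.56, 7.78 and 7.64, and Dmimic 8.21, 7.95 and 8.24. Here Qmimic lay just above AllStar, by 0.25 (SE 0.12) and 0.14 (SE 0.10), while Dmimic was higher by 0.73 (SE 0.12) and 0.61 (SE 0.10). On 207303_at AllStar read 7.68, 7.84 and 7.46, Qmimic 7.67, 7.89 and 7.88, and Dmimic 8.30, 8.29 and 8.11. Qmimic overlapped AllStar there, with differences of 0.15 (SE 0.12) and 0.05 (SE 0.09), and Dmimic was higher by 0.57 (SE 0.12) and 0.47 (SE 0.09).

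The last PDE1C probe sets differed little. On 243564_at AllStar spanned 6.33 to 6.39, Qmimic 6.37 to 6.40 and Dmimic 6.53 to 6.71, so that only the Dmimic arrays stood apart, by 0.25 (SE 0.08) with 9 arrays and 0.26 (SE 0.07) with 8. On 1554378_a_at, at a low level of 3.36 to 3.70 on every array, Dmimic differed from AllStar by 0.04 (SE 0.09) with 9 arrays and -0.0043 (SE 0.07) with 8, and Qmimic by -0.18 (SE 0.09) and -0.22 (SE 0.07). The 6 probe sets read 1 gene in the same RNA and are not independent of each other. With 9 arrays, 236344_at passed the thresholds with Dmimic. It no longer passed with the replicate number as a block, when each array was centred on its median, or when only the groups compared entered the fit. Nor did it pass without AllStar replicate 1, any Qmimic array or any Dmimic array. The differences in all of these were 1.08 to 1.18. With 8 arrays 236344_at, 239218_at and 216869_at passed with Dmimic, and 239218_at with Qmimic. Leaving out AllStar replicate 1 as well, which leaves a lone AllStar array whose spread limma takes from the other groups, ended all 4 of these. Leaving out AllStar replicate 2 instead ended that of 239218_at with Qmimic and that of 216869_at, which also fell under 1.5-fold without Dmimic replicate 1 (0.58) or 3 (0.56) and was not called when only the groups compared entered the fit. The call of 216869_at ended with the replicate block as well.

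**Figure D1:**
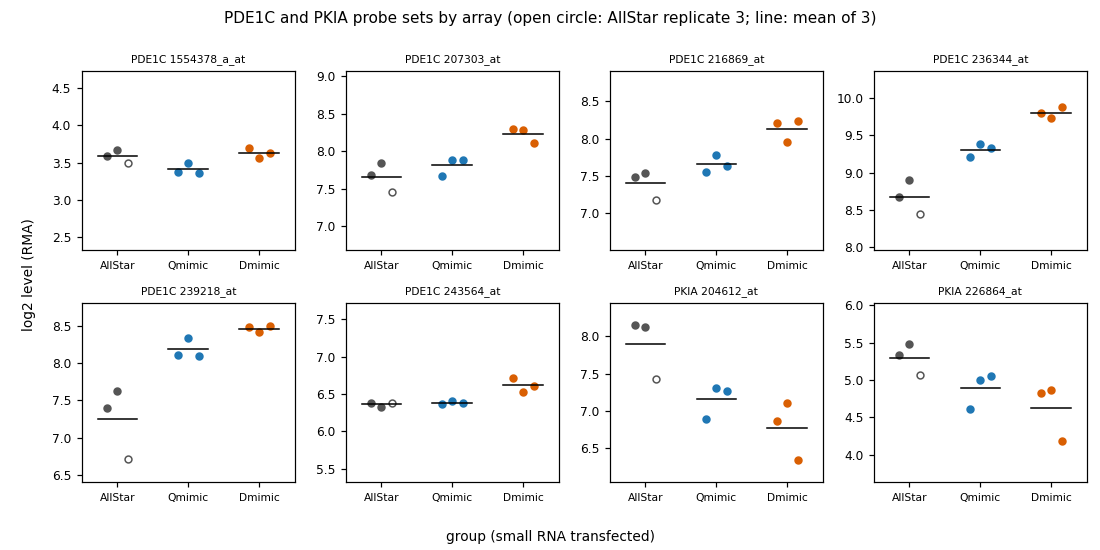
Log2 RMA level (vertical axis, all panels span the same number of log2 units) of the 6 PDE1C and 2 PKIA probe sets on each array of AllStar, Qmimic and Dmimic (horizontal axis); points are arrays, the open circle is AllStar replicate 3 and the line is the mean of 3 arrays. On PDE1C 236344_at the means climb from 8.68 through 9.31 to 9.80, and on PKIA 204612_at they descend from 7.90 through 7.15 to 6.77.

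PDE4B (chr1:65792510-66374579) and PDE4D (chr5:58969038-60522128) encode phosphodiesterases specific for cyclic AMP, and none of their 9 probe sets was called in any comparison. The brightest PDE4D probe set, 204491_at, read 8.02, 7.98 and 7.56 with AllStar, 7.998, 8.12 and 8.07 with Qmimic, and 8.13, 8.06 and 7.91 with Dmimic. All groups overlapped, with AllStar replicate 3 and without it. The differences were 0.21 (SE 0.13) with Qmimic and 0.18 (SE 0.13) with Dmimic over 9 arrays and 0.06 (SE 0.08) and 0.03 (SE 0.08) over 8. PDE4B 203708_at read 6.23, 6.27 and 5.86 with AllStar, 6.25, 6.36 and 6.30 with Qmimic, and 6.12, 6.26 and 6.06 with Dmimic, which also overlapped. Its differences were 0.18 (SE 0.12) and 0.03 (SE 0.12) over 9 arrays and 0.05 (SE 0.08) and -0.10 (SE 0.08) over 8. The other PDE4B probe sets, 211302_s_at and 215671_at, lay within 0.02 to 0.14 of AllStar with either mimic over 9 arrays and within 0.05 to 0.10 over 8.

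The low PDE4D probe sets lay lower with the mimics. On 210836_x_at, a type of probe set that can also bind related transcripts, AllStar read 4.70, 5.00 and 4.29, Qmimic 4.39, 4.23 and 4.19, and Dmimic 4.45, 4.61 and 4.27. Without AllStar replicate 3, Qmimic lay at -0.58 (SE 0.12, limma adjusted p = 0.0415), or 1.49-fold lower and so just short of the fold threshold, and with all 9 arrays at -0.39 (adjusted p = 0.294). Dmimic lay at -0.41 with 8 arrays and -0.22 with 9. On 210837_s_at the 8-array differences were -0.40 (SE 0.09, limma adjusted p = 0.0526) with Qmimic and -0.36 (SE 0.09, adjusted p = 0.0634) with Dmimic, and the 9-array ones -0.25 (SE 0.14) and -0.21 (SE 0.14). AllStar replicate 3 read 3.69 there, inside the range of the mimics, and it read 4.83 on 211840_s_at, above all other arrays, where the differences were -0.32 and -0.24 with 9 arrays and -0.20 and -0.12 with 8. The other PDE4D probe sets, 1554717_a_at and 228962_at, lay within -0.26 to 0.24 of AllStar with either mimic over 9 arrays and within -0.18 to 0.13 over 8.

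PKIA (chr8:78516340-78605267), the alpha form of the PKA inhibitor, had lower levels with both mimics. On 204612_at AllStar read 8.15, 8.12 and 7.43, Qmimic 6.90, 7.30 and 7.26, and Dmimic 6.87, 7.11 and 6.35. Every mimic array lay below every AllStar array, replicate 3 included, though that array came close to the highest Qmimic array. Dmimic differed from AllStar by -1.12 (SE 0.23) with 9 arrays and -1.36 (SE 0.19), or 2.57-fold lower, with 8. Qmimic differed by -0.74 (SE 0.23) and -0.98 (SE 0.19), or 1.97-fold lower.

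The second PKIA probe set, 226864_at, read 5.34, 5.48 and 5.07 with AllStar, 4.62, 5.00 and 5.05 with Qmimic, and 4.83, 4.87 and 4.19 with Dmimic. It pointed the same way at smaller sizes, with 8-array differences of -0.52 (SE 0.19) for Qmimic and -0.78 (SE 0.19) for Dmimic and 9-array ones of -0.41 (SE 0.20) and -0.67 (SE 0.20), and it was called in neither fit. PKIA 204612_at passed the thresholds with both mimics in the 8-array fit and with neither in the 9-array fit. Leaving out AllStar replicate 1 (-1.35) or 2 (-1.37) from the 8 arrays ended the call with Dmimic, and fitting only the groups compared did so too. The call with Qmimic ended without AllStar replicate 1 or 2, without any single Qmimic array and without Dmimic replicate 1. With the replicate block the calls with both mimics ended. Without Dmimic replicate 2, 226864_at passed with Dmimic at -0.90, as it did with an eBayes trend.

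PKIB (chr6:122471921-122726373) and PKIG (chr20:44531875-44619037) encode the beta and gamma forms of the inhibitor. PKIG 202732_at read 8.79, 8.78 and 8.23 with AllStar, 9.45, 9.26 and 9.13 with Qmimic, and 9.22, 9.21 and 9.60 with Dmimic. All 6 mimic arrays lay above all AllStar arrays, opposite in direction to PKIA. The differences were 0.68 (SE 0.17, limma adjusted p = 0.184) and 0.74 (SE 0.17, adjusted p = 0.141) with 9 arrays. With 8 arrays they were 0.50 (SE 0.13, limma adjusted p = 0.0784) and 0.56 (SE 0.13, adjusted p = 0.0512), under 1.5-fold, so PKIG was called in neither fit. Without Dmimic replicate 2 it was called with Dmimic at 0.62 (limma adjusted p = 0.0378).

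PKIB 223551_at read 5.63, 5.94 and 5.35 with AllStar, 5.80, 5.99 and 6.04 with Qmimic, and 5.69, 5.63 and 5.51 with Dmimic. Both mimics overlapped AllStar, with differences of 0.30 (SE 0.14) for Qmimic and -0.03 (SE 0.14) for Dmimic over 9 arrays and 0.16 (SE 0.11) and -0.17 (SE 0.11) over 8. The second PKIB probe set, 231120_x_at, was low on all arrays, from 3.22 to 3.61, and differed from AllStar by at most 0.05 with either mimic over 9 arrays and by at most 0.03 over 8.

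PRKACA (chr19:14091688-14117762), the alpha catalytic subunit and the main source of PKA activity in most tissues, was level across the groups. Its brighter probe set 202801_at read 9.53, 9.51 and 9.31 with AllStar, 9.48, 9.59 and 9.50 with Qmimic, and 9.40, 9.70 and 9.58 with Dmimic. Over 8 arrays the differences were 0.01 (95% half-width 0.20) and 0.04 (half-width 0.20), so a change beyond 1.5-fold lay outside these intervals, and over 9 arrays 0.08 (half-width 0.23) and 0.11 (half-width 0.23). The other PRKACA probe set, 216234_s_at, differed by -0.02 (half-width 0.18) and 0.08 (half-width 0.18) over 8 arrays and by -0.01 (half-width 0.20) and 0.08 (half-width 0.20) over 9.

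The 3 probe sets of PRKACB (chr1:84078079-84238498), the beta catalytic subunit, did not move as 1. On 202742_s_at AllStar read 7.998, 7.89 and 6.76, Qmimic 7.48, 7.61 and 7.52, and Dmimic 7.59, 7.32 and 7.44. AllStar replicate 3 lay below all other arrays and the other AllStar arrays above them. The differences were thus -0.01 (SE 0.27) and -0.10 (SE 0.27) with 9 arrays. With 8 arrays they were -0.41 (SE 0.09, limma adjusted p = 0.0498) for Qmimic and -0.49 (SE 0.09, adjusted p = 0.0261) for Dmimic, both under 1.5-fold and not called. On 202741_at AllStar read 9.17, 9.09 and 8.67, Qmimic 9.03, 9.07 and 8.96, and Dmimic 8.89, 8.81 and 8.91. The differences there were 0.04 (SE 0.12) for Qmimic and -0.11 (SE 0.12) for Dmimic with 9 arrays and -0.11 (SE 0.07) and -0.26 (SE 0.07) with 8, so the sign for Qmimic differed with and without AllStar replicate 3. On 235780_at AllStar read 4.55, 4.54 and 4.14, and the mimic arrays all read 4.68 or more, so the direction was opposite, at 0.35 (SE 0.10) for Qmimic and 0.25 (SE 0.10) for Dmimic over 8 arrays and 0.49 (SE 0.13) and 0.38 (SE 0.13) over 9.

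PRKAR1A (chr17:68413623-68551316), the type I alpha regulatory subunit, had 4 probe sets and none was called. On 200603_at AllStar read 11.63, 11.54 and 11.10, Qmimic 11.78, 11.83 and 11.67, and Dmimic 11.67, 11.65 and 11.72. The mimic arrays lay above the AllStar arrays, by 0.18 (SE 0.07) for Qmimic and 0.09 (SE 0.07) for Dmimic over 8 arrays and by 0.34 (SE 0.13) and 0.25 (SE 0.13) over 9. On 200604_s_at AllStar read 9.90, 9.82 and 9.03, Qmimic 9.63, 9.55 and 9.55, and Dmimic 9.96, 9.74 and 9.80. Qmimic there lay below AllStar replicates 1 and 2, by -0.28 (SE 0.08, limma adjusted p = 0.0969), and Dmimic overlapped them at -0.03 (SE 0.08), while with 9 arrays the differences were -0.01 (SE 0.20) and 0.25 (SE 0.20). The PRKAR1A probe set 200605_s_at differed by 0.04 (SE 0.08) and 0.05 (SE 0.08) over 8 arrays and by 0.17 (SE 0.12) and 0.19 (SE 0.12) over 9. On 242482_at Qmimic lay at 6.79 to 6.90 and Dmimic at 6.54 to 6.62, on either side of AllStar replicates 1 and 2 at 6.79 and 6.65. AllStar replicate 3 read 6.01, below all mimic arrays, and the differences were 0.37 (SE 0.17) and 0.10 (SE 0.17) with 9 arrays and 0.13 (SE 0.07) and -0.14 (SE 0.07) with 8.

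PRKAR2B (chr7:107044705-107161811), the type II beta regulatory subunit, has 1 probe set, 203680_at. It read 7.69, 7.81 and 6.85 with AllStar, 7.18, 7.50 and 7.49 with Qmimic, and 7.30, 7.20 and 6.79 with Dmimic. Without AllStar replicate 3 all mimic arrays lay below AllStar, and with it both mimics overlapped AllStar. With 8 arrays Dmimic differed by -0.65 (SE 0.15), or 1.57-fold lower, and was called at a limma adjusted p of 0.0495, while Qmimic differed by -0.36 (SE 0.15, adjusted p = 0.230). With 9 arrays the Dmimic difference was -0.35 (SE 0.24, limma adjusted p = 0.516) and the Qmimic difference -0.06 (SE 0.24). The 8-array call ended with the replicate block and under cyclic loess (limma adjusted p = 0.0503 with the latter). It ended too when each array was centred on its median (adjusted p = 0.0522) and when only the groups compared entered the limma fit (adjusted p = 0.113). It also ended without AllStar replicate 1 (-0.71) or 2 (-0.59), without any single Qmimic array and without Dmimic replicate 3 (-0.50), with adjusted p of 0.0512 to 0.299.

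**Figure D2:**
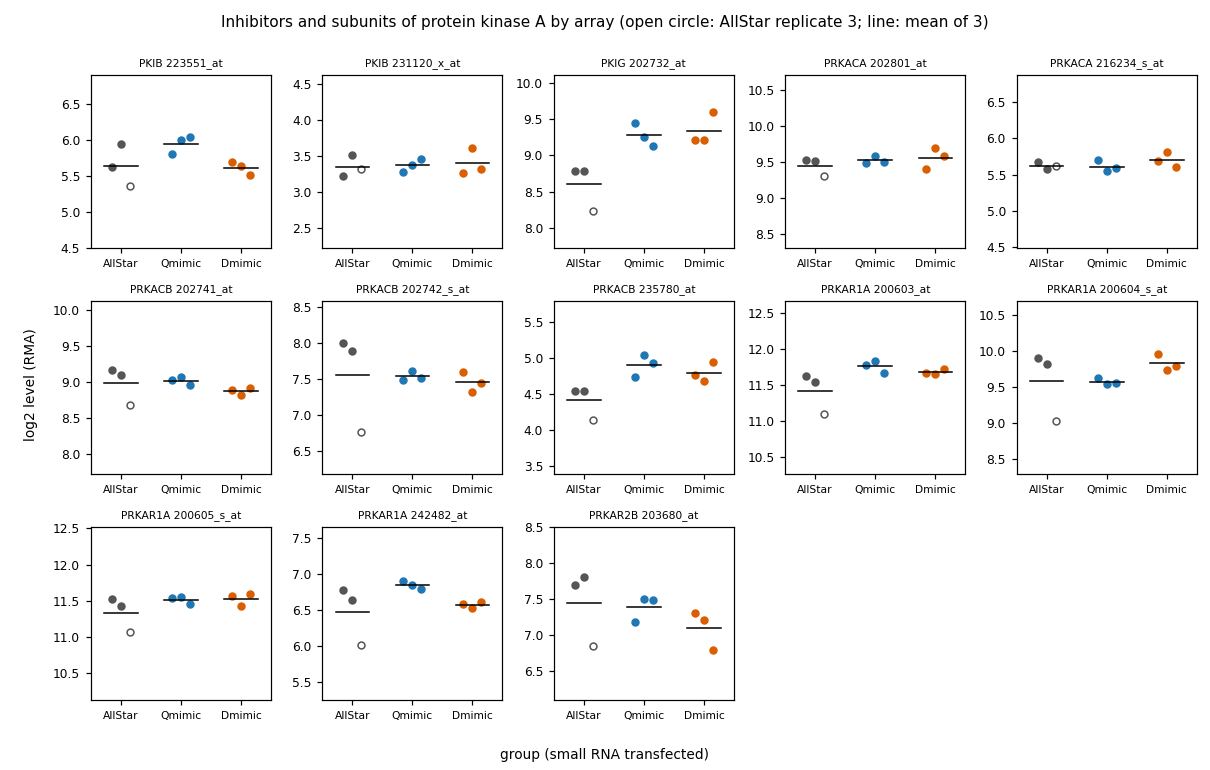
Log2 RMA level (vertical axis, all panels span the same number of log2 units) of the probe sets of the inhibitors PKIB and PKIG and of the PKA subunits on each array of AllStar, Qmimic and Dmimic (horizontal axis); points are arrays, the open circle is AllStar replicate 3 and the line is the mean of 3 arrays. The open circle is the lowest AllStar array on most panels, as on PRKACB 202742_s_at at 6.76 and PRKAR2B 203680_at at 6.85, and the PKIG mimic arrays all lie above AllStar.

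Counted over all 30 probe sets, few passed the thresholds. With 9 arrays no member was called with Qmimic (0% of all probe sets tested were) and 1 with Dmimic (0.00549% of all). An unadjusted limma p under 0.05 was found for 9 of 30 with Qmimic, against 16.3% of all probe sets, and for 9 of 30 with Dmimic, against 12.8%. With 8 arrays 2 were called with Qmimic (0.54% of all), PDE1C 239218_at higher and PKIA 204612_at lower. With Dmimic 5 were called (0.864% of all), 3 of PDE1C higher and 1 each of PKIA and PRKAR2B lower. An unadjusted limma p under 0.05 was found over 8 arrays for 13 of 30 with Qmimic (18.2% of all). With Dmimic it was found for 14 of 30 (17.1%). Since differences from AllStar in these arrays led to the choice of PDE1C and PKIA, nothing is read from these counts against the background.

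Counts of probe sets whose groups do not overlap include those of PDE1C and PKIA and are read in the same way. With 9 arrays 7 of 30 were higher in every Qmimic array than in every AllStar array (14.1% of all) and 4 lower (10.8%), and with Dmimic 8 were higher (11.9%) and 2 lower (7.04%). With 8 arrays Qmimic gave 7 higher (17.9%) and 11 lower (20%), and Dmimic 8 higher (17%) and 8 lower (16.5%). The median difference of the 30 probe sets was 0.06 with Qmimic and 0.08 with Dmimic over 9 arrays, and -0.03 for all probe sets in both. Over 8 arrays it was 0.03 and 0.01, beside -0.01 and -0.0004 for all probe sets. Members thus lay on both sides of 0. Over 8 arrays 17 of 30 lay above it with Qmimic (45.7% of all) and 15 of 30 with Dmimic (49.9%). Over 9 arrays 19 of 30 did with Qmimic (43.5%) and 20 of 30 with Dmimic (44.4%).

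**Figure D3:**
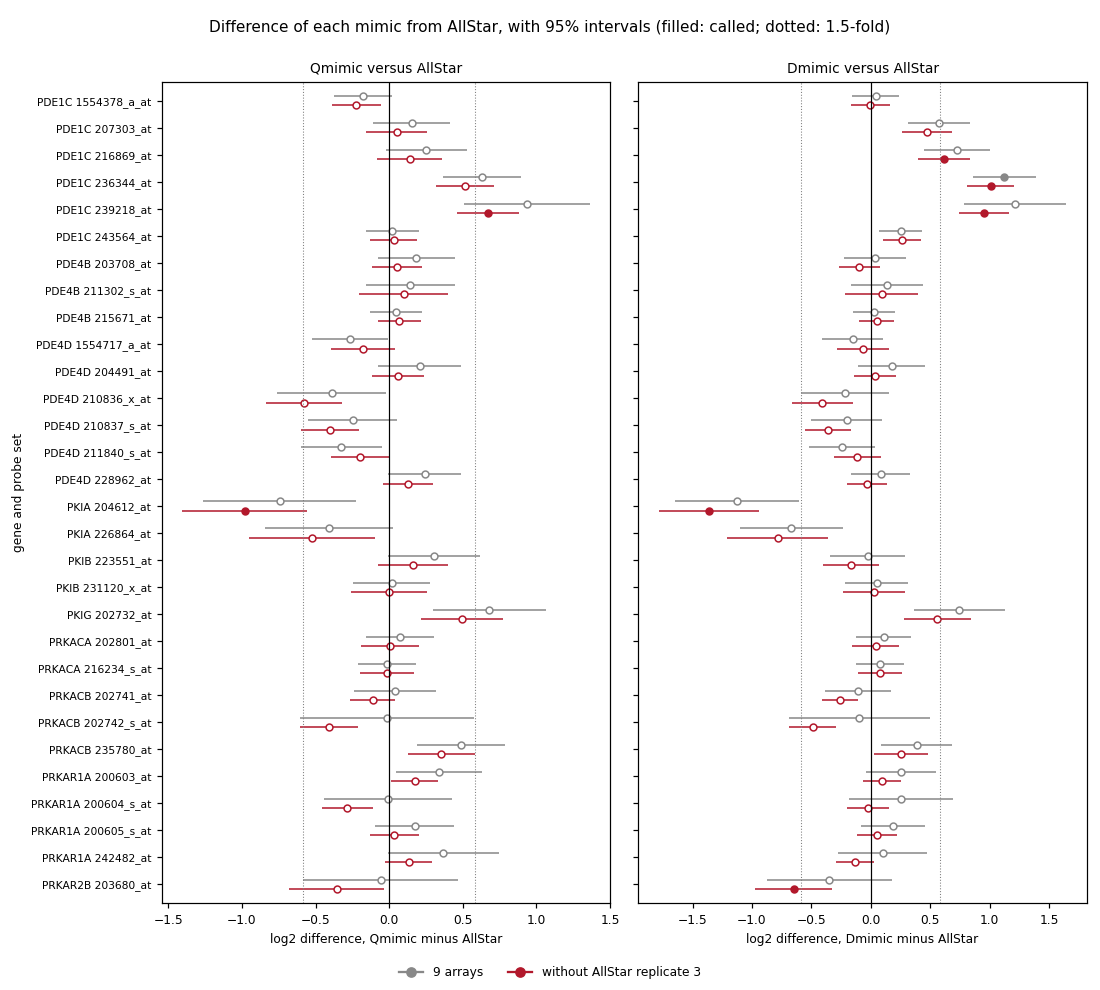
Log2 difference from AllStar (horizontal axis) of the 30 probe sets (vertical axis) for Qmimic (left) and Dmimic (right), with 95% intervals from limma; grey is the fit of 9 arrays, red the fit without AllStar replicate 3, filled points were called and dotted lines mark 1.5-fold. PDE1C 236344_at with Dmimic is the only filled grey point, at 1.12, and PKIA 204612_at reaches -1.36 in red.

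The comparison of Qmimic with Dmimic asks whether the mimics differ from each other. It uses no AllStar level, though it shares the mimic arrays with the contrasts for which PDE1C and PKIA were chosen. PDE1C was lower with Qmimic on all 6 probe sets with no overlap of the groups, by -0.22 (SE 0.09) on 1554378_a_at, -0.42 (SE 0.12) on 207303_at, -0.47 (SE 0.12) on 216869_at, -0.49 (SE 0.12) on 236344_at, -0.28 (SE 0.19) on 239218_at and -0.23 (SE 0.08) on 243564_at. These SEs are from all 9 arrays, where the limma adjusted p was 1 for each of the 30 probe sets. AllStar replicate 3 enters this comparison through the pooled spread alone, so the differences are the same without it. The SEs then fall, and 236344_at had an adjusted p of 0.044 at 1.41-fold, under the fold threshold, while the other PDE1C probe sets had limma adjusted p of 0.0808 to 0.276. The adjusted p of 236344_at was over 0.05 when any of the remaining 8 arrays was left out of the limma fit (0.0649 to 0.201), when each array was centred on its median (0.0513) and when only the mimics entered it (0.0649).

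PKIA 204612_at was higher with Qmimic than with Dmimic by 0.38, with a 95% half-width of 0.52 with 9 arrays and 0.38 with 8 (limma adjusted p = 0.451), and the groups overlapped. PKIB 223551_at was higher with Qmimic in all arrays, by 0.33 (8-array SE 0.10, limma adjusted p = 0.248), and PRKAR1A 242482_at likewise by 0.27 (SE 0.06, adjusted p = 0.160). PKIG differed by -0.06 with a 95% half-width of 0.25 over 8 arrays, and PRKAR2B by 0.29 with a half-width of 0.29. None of the 30 probe sets was called in this comparison with 9 arrays (0% of all) or with 8 (0.0806% of all). An unadjusted limma p under 0.05 was found for 6 of 30 with 9 arrays (2.41% of all) and 14 of 30 with 8 (11.1%). Of the 6, 5 were probe sets of PDE1C. A limma adjusted p under 0.05 without the fold threshold was found for 1 with 8 arrays (0.214%). The groups did not overlap for 4 probe sets higher with Qmimic (7.11% of all) and 7 lower (8.95%), of which 6 were those of PDE1C. Since the mimic arrays also entered the choice of PDE1C and PKIA, nothing is read from these counts against the background.

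**Figure D4:**
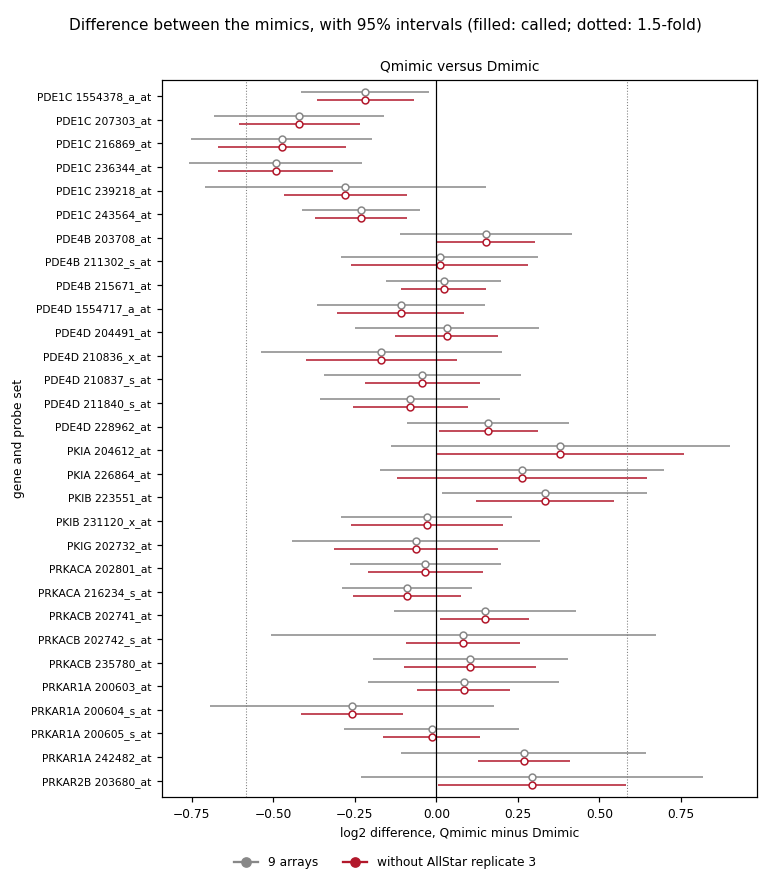
Log2 difference of Qmimic minus Dmimic (horizontal axis) of the 30 probe sets (vertical axis) with 95% intervals from limma; grey is the fit of 9 arrays, red the fit without AllStar replicate 3, a filled point would mark a call and dotted lines mark 1.5-fold. No point is filled, all 6 PDE1C points lie left of 0 down to -0.49, and the intervals of both PKIA probe sets are wide.

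Of 82 other genes of the cyclic AMP pathway in a list arranged by role, 73 were measured with 210 probe sets. With 9 arrays none of the 73 was called in limma with either mimic, while 13 had an unadjusted p under 0.05 with Qmimic, beside 16.3% of all probe sets, and 15 with Dmimic, beside 12.8%. With 8 arrays and Qmimic 1 of 73 genes was called lower and 0 higher on its brightest probe set, and with Dmimic 1 higher and 0 lower, against the backgrounds of 0.54% and 0.864% given above. An unadjusted limma p under 0.05 was found over 8 arrays for 18 of the 73 with Qmimic, beside 18.2% of all probe sets. With Dmimic it was found for 22, beside 17.1%. Each gene is counted on its brightest probe set, while the shares are over all probe sets. Over 8 arrays the median difference of the 73 genes was -0.02 with Qmimic and -0.01 with Dmimic, and over 9 arrays -0.06 and -0.07.

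The gene called with Qmimic was GNAI2, an alpha subunit of the G proteins that restrain adenylyl cyclase. It read 10.34, 10.32 and 10.34 with AllStar, 9.44, 9.72 and 9.77 with Qmimic, and 10.09, 10.24 and 9.94 with Dmimic. AllStar replicate 3 lay beside the other AllStar arrays here, and all Qmimic arrays lay below all others. The difference was -0.69 (SE 0.11) in both fits, with a limma adjusted p of 0.0204 with 8 arrays and 0.116 with 9. With the replicate block over 8 arrays GNAI2 was no longer called (limma adjusted p = 0.0729). The 8-array call ended without AllStar replicate 1 or 2 or Qmimic replicate 1 or 2, with adjusted p of 0.0642 to 0.175. Dmimic differed by -0.24 (SE 0.11, limma adjusted p = 0.312), and Qmimic from Dmimic by -0.45 (SE 0.10, adjusted p = 0.139).

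The gene called with Dmimic was SIK1, a kinase whose transcript cyclic AMP induces and which restrains the CREB coactivators. Of its 2 probe sets only the brighter, 208078_s_at, was called. It read 7.87, 7.86 and 7.02 with AllStar, 8.42, 8.21 and 8.28 with Qmimic, and 8.44, 8.39 and 8.90 with Dmimic. All mimic arrays lay above all AllStar arrays. With 8 arrays Dmimic was higher by 0.71 (SE 0.13, limma adjusted p = 0.0308) and Qmimic by 0.44 (SE 0.13, adjusted p = 0.125), and with 9 arrays Dmimic by 0.99 (SE 0.22, adjusted p = 0.133). The SIK1 call ended without AllStar replicate 1 or 2 or Qmimic replicate 2 or 3 (limma adjusted p 0.0525 to 0.21) and fell under 1.5-fold without Dmimic replicate 3 (0.55). It also ended with the replicate block, and when only the groups compared entered the limma fit the adjusted p was 0.106. For INHBA, a subunit of activin, 1 of 3 probe sets was called, 227140_at, at a low level. It read 3.79, 4.08 and 3.83 with AllStar, 4.53, 4.69 and 4.38 with Qmimic, and 4.95, 4.57 and 5.40 with Dmimic. Dmimic was higher by 1.04 (SE 0.20, limma adjusted p = 0.0308) with 8 arrays and 1.07 (SE 0.19, adjusted p = 0.0893) with 9. The 8-array call of 227140_at ended with the replicate block. This call ended without AllStar replicate 1 or 2, Qmimic replicate 2 or Dmimic replicate 1, with limma adjusted p of 0.055 to 0.238, and when only the groups compared entered the fit (0.107).

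The other genes named here were not called on their brightest probe set, and each is given there for Dmimic, with limma's adjusted p, over 8 arrays and then over 9. Among 10 adenylyl cyclases, which make cyclic AMP, ADCY9 differed by 0.42 (adjusted p = 0.0421) over 8 arrays and 0.57 (adjusted p = 0.144) over 9, and ADCY5 differed by -0.22 and -0.21. Among 13 other phosphodiesterases PDE7A differed by -0.45 (adjusted p = 0.0581) over 8 and -0.23 (adjusted p = 0.545) over 9, and PDE4A by 0.30 (adjusted p = 0.065) over 8 and 0.33 (adjusted p = 0.177) over 9. The other regulatory subunits lay at 0.21 and 0.22 for PRKAR2A and at 0.12 and -0.03 for PRKAR1B. Among 15 anchoring proteins, which tether PKA in the cell, AKAP9 differed by 0.39 (adjusted p = 0.0344) and by 0.66 (adjusted p = 0.218), and AKAP12 differed by -0.52 (adjusted p = 0.0592) and by -0.35 (adjusted p = 0.398). The stimulatory subunit GNAS lay at -0.14 and -0.10, the exchange factor RAPGEF3 at -0.17 and -0.13, and the membrane protein POPDC2 at -0.08 and -0.09. These genes were picked by their Dmimic values, and some differed as much with Qmimic. Over 8 arrays Qmimic lay at 0.34 (limma adjusted p = 0.0481) for PDE4A and 0.44 (adjusted p = 0.0252) for AKAP9. For ADCY9 it lay at 0.35 (adjusted p = 0.0772), for AKAP12 at -0.43 (adjusted p = 0.11) and for PDE7A at -0.05 (adjusted p = 0.856).

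Of 7 genes of the CREB family and its coactivators 2 lay above 0 with Qmimic over 8 arrays and 4 over 9, with medians of -0.13 and 0.06. Of all probe sets 45.7% and 43.5% did. With Dmimic 1 lay above 0 over 8 arrays and 2 over 9, with medians of -0.30 and -0.07. Of all probe sets 49.9% and 44.4% lay above 0 with Dmimic. The coactivator CRTC3 differed by -0.55 (limma adjusted p = 0.0219) over 8 arrays and -0.40 (adjusted p = 0.28) over 9, and CREB1 by -0.31 (adjusted p = 0.0459) over 8 and -0.07 (adjusted p = 0.848) over 9. AllStar replicate 3 read 8.50 for CREB1 against 9.25 and 9.19 on the other AllStar arrays. Of 14 cyclic AMP-responsive genes 7 lay above 0 with Dmimic over 8 arrays, at a median of 0.01, and 7 over 9 arrays, at -0.01. BDNF, a neurotrophin gene with a CREB site, lay at 0.48 (limma adjusted p = 0.0255) over 8 arrays and 0.63 (adjusted p = 0.124) over 9. NR4A2, a nuclear receptor gene added here after its values were seen, differed by -0.48 (limma adjusted p = 0.0344) over 8 arrays, under 1.5-fold, and by -0.32 (adjusted p = 0.37) over 9.

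**Figure D5:**
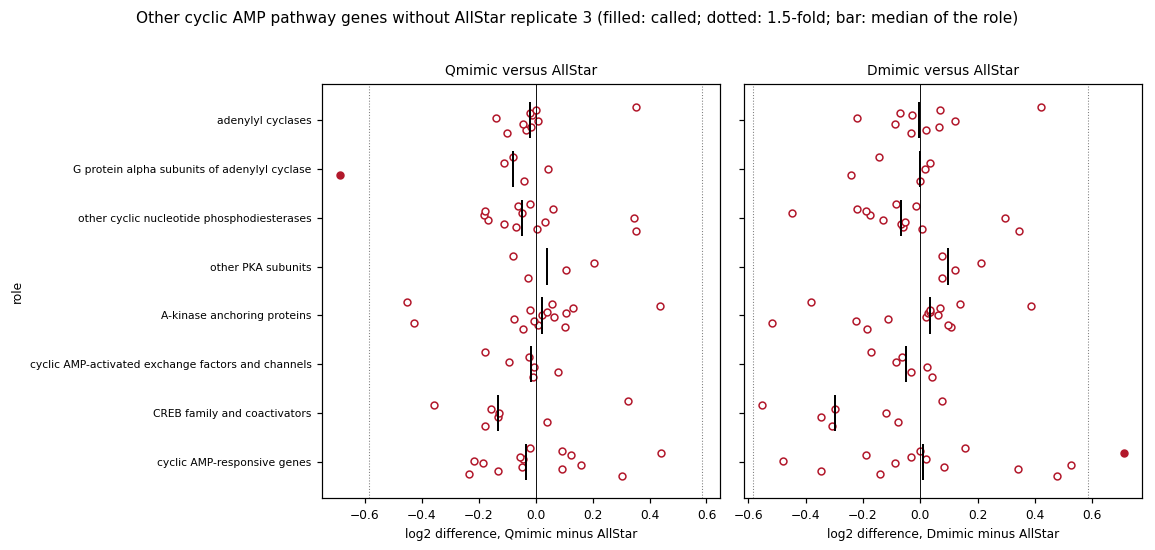
Log2 difference from AllStar (horizontal axis) without AllStar replicate 3 for the 73 other cyclic AMP pathway genes by role (vertical axis), Qmimic on the left and Dmimic on the right; each point is the brightest probe set of a gene, the bar is the median of the role, filled points were called and dotted lines mark 1.5-fold. GNAI2 at -0.69 with Qmimic and SIK1 at 0.71 with Dmimic are the only filled points. The CREB family bar lies at -0.13 with Qmimic and at -0.30 with Dmimic.

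Genes with patterns like the leading members were sought among 915 probe sets at a level of at least 6 with an SD of at least 0.3, by Pearson r over the 8 arrays without AllStar replicate 3. For PDE1C 236344_at they were RBM24 (r = 0.99), an RNA-binding protein, EDN1 (r = 0.99), the vasoconstrictor peptide endothelin, and RGS7 (r = 0.98), a regulator of G protein signalling, with r of 0.99, 0.99 and 0.98 over 9 arrays, and 23 of the 915 were over 0.9. RBM24 read 8.03 and 8.21 with AllStar replicates 1 and 2, 8.56, 8.77 and 8.77 with Qmimic, and 9.14, 9.14 and 9.16 with Dmimic, the same order of groups. For PKIA 204612_at they were HMGN4 (r = 0.99), a nucleosome-binding protein, GINS3 (r = 0.99), a part of the replication helicase, and FOXN3 (r = 0.99), a forkhead transcription factor, with r of 0.99, 0.99 and 0.97 over 9 arrays. For PKIA 325 of the 915 were over 0.9, so such likeness was common. GINS3 read 7.04 and 7.04 with AllStar replicates 1 and 2, 5.75, 6.14 and 6.25 with Qmimic, and 5.90, 6.09 and 5.18 with Dmimic, with the lowest value on Dmimic replicate 3 as for PKIA. The points share the arrays and the group differences, and these r values are descriptions without a test.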

How the data were processed

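Total RNA of 9 transfected wells was measured on 9 arrays. The deposited values are log2 levels per probe set that the authors made with RMA, per the series' design text and the submitters' processing notes, which also name limma without a version. RMA scales arrays to 1 distribution, yet AllStar replicate 3 kept a narrower one (interquartile range 2.99 against 3.41 to 3.53). No pair of arrays was identical (0 pairs). The table held 54675 probe sets, of which 62 controls were left out, and the other 54613 were tested with no filter. The annotation named 1 symbol for 41091 probe sets, several for 1801 and none for 11721, and all 10 members matched RefSeq.

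In limma 3.58.1 under R 4.3.3, lmFit and eBayes were run on 1 model with 3 groups, with 9 arrays and with 8, after tests on simulated data. The labels call the replicates biological, and p-values measure the spread between these wells. Members and lists were chosen with earlier results of these data known. Named were all members, pathway genes called in either fit, otherwise up to 2 genes a role with the smallest adjusted p for Dmimic over 8 arrays, and the 3 genes most like PDE1C and PKIA. Alternatives were a replicate block, a log2 threshold of 1.5, adjusted p alone, repeated quantile normalisation, cyclic loess, median centring, a level of at least 6, eBayes with a trend, only the groups compared, and leaving out each array.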

Additional observations from a re-analysis of the deposited data

Results flagged for a closer look

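PDE1C was chosen for its differences from AllStar, which share the mimic arrays. In the direct comparison of the mimics, PDE1C 236344_at was lower with Qmimic. Qmimic minus Dmimic was -0.49 with the 8 arrays without AllStar replicate 3. A test of that difference in limma gave an adjusted p of 0.044 there and of 1 with 9 arrays. The Qmimic arrays read 9.21, 9.38 and 9.33 and the Dmimic arrays 9.79, 9.73 and 9.88. It was not called, since 1.41-fold is under the fold threshold, and the limma adjusted p was over 0.05 when any of the 8 arrays was left out (0.0649 to 0.201) and when each array was centred on its median (0.0513).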

How the results depend on the processing

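Counts of called probe sets among the 30 were small, so 1 or 2 calls move them. Over 9 arrays, Dmimic versus AllStar, 1 in the fit as reported, became 0 with the replicate block, at a log2 threshold of 1.5, with each array centred on its median and with only the groups compared, 3 with quantile normalisation repeated and 4 with cyclic loess. Qmimic versus AllStar, 0 as reported, became 1 with cyclic loess. Over 8 arrays, Qmimic versus AllStar, 2 as reported, became 1 with the replicate block, 0 at a log2 threshold of 1.5 and 5 by adjusted p alone, and Dmimic versus AllStar, 5 as reported, became 2 with the replicate block, 0 at a log2 threshold of 1.5 and 2 with only the groups compared. Qmimic versus Dmimic over 8 arrays, 0 as reported, became 1 by adjusted p alone. Leaving out each array in turn gave 0 to 2 (Qmimic) and 0 to 5 (Dmimic) from 9 arrays, 0 to 2 and 0 to 7 from 8, and 0 for Qmimic versus Dmimic in both. The counts of the other alternatives stayed within 1.5 times those reported, and no called value changed sign in any. Under the scalings tried the median of all probe sets lay between -0.02 and 0.03. The causes were not tested.

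Whether the replicate numbers pair the arrays was not settled. The residual correlation was over 0.1 for 3 of the 9 pairs of equal number, from -0.28 to 0.22. Pairs of unequal number were not compared, so the calls lost with the replicate block, listed next, limit the results above as well. With the replicate block over 8 arrays PKIA 204612_at with Qmimic (limma adjusted p = 0.1) and PDE1C 216869_at, PKIA 204612_at and PRKAR2B with Dmimic were no longer called, nor were GNAI2 with Qmimic (adjusted p = 0.0729) and SIK1 (0.104) and INHBA (0.118) with Dmimic. With 9 arrays PDE1C 236344_at with Dmimic was no longer called (0.147). Precision is limited by the number of arrays, for which no depth exists. No detection calls were used, so whether the low probe sets of PDE4B, PDE4D and PKIB stood above background was not tested.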
